A study of Caenorhabditis elegans with 2 samples.

Results

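LIN-35 is the retinoblastoma-family pocket protein of Caenorhabditis elegans. It is a subunit of the DREAM complex, which holds cell cycle genes in a repressed state together with E2F and DP proteins and is best known from gene promoters. Binding inside exons, away from the annotated starts of protein-coding genes, lies outside that setting, so it was described here for its own sake. Chromatin immunoprecipitation with sequencing (ChIP-seq) marks such binding as a peak of sequenced fragments over a control. The regions described here are the exonic summits away from promoters. They are the reproducible LIN-35 peaks whose summit, the position of highest enrichment, lies in a coding or untranslated exon of a protein-coding gene and outside the window from 500 bp upstream to 200 bp downstream of every protein-coding transcript start. There were 200 such summits among 6712 reproducible peaks. The rule used positions only and no signal value beyond that of the reproducible list.

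The peaks came from whole first-stage (L1) larvae of strain YL398, males and females pooled, in 2 biological replicates that formed 1 group. The strain carries unc-119(ed3)III and the transgene vrIs55, an array in which LIN-35 with a GFP and FLAG tag is expressed under the ges-1 promoter, that of an esterase of the gut. The construct ends in the 3'UTR of lin-35 and carries functional unc-119 (unc-119(+)) as its marker. The fusion is thus made from a gut promoter, while the DNA came from the whole animal, and the labels name both LIN-35 and the GFP fusion as the target of the antibody. The authors deposited a relaxed list of strong and weak peaks for each replicate and for both pooled, and a reproducible list thresholded by the irreproducible discovery rate. Each peak has a signal value, which is the authors' enrichment score and is comparable within a list but not between lists. The read depth is unknown, so no error can be given for a single peak, and the intervals below are 95% intervals over summits that cover counting error only. No other genotype, stage or untagged strain was analysed here. Positions are in ce11.

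Of the 200 exonic summits, 96 (48.0%, 95% Wilson interval 41.2 to 54.9) lay in coding exons, 77 (38.5%, 32.0 to 45.4) in 3'UTR exons and 26 (13%, 9.03 to 18.4) in 5'UTR exons. The remaining summit lay where the 3'UTR and 5'UTR annotations of nas-4, which encodes a metalloendopeptidase, and of C05D11.5 overlap. Summits in exons were rare for the length of exons. Exons away from promoters made up 24.0% of the genome and held 2.98% of the reproducible summits, a density of 8.32 summits per Mb (exact Poisson interval 7.20 to 9.55), against 206.4 per Mb (199.5 to 213.5) in promoter windows and 66.9 per Mb over the whole genome. The kinds of exon differed among themselves. Coding exons held 4.59 summits per Mb (3.72 to 5.61), 3'UTR exons 28.0 (22.1 to 35.0) and 5'UTR exons 75.2 (49.1 to 110.2), against 37.7 (35.5 to 39.9) in introns and 66.7 (63.8 to 69.6) in intergenic sequence. The interval for 5'UTR exons contained the intergenic density, and that for 3'UTR exons lay below the intronic one.

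The relaxed list of the pooled replicates gives the background for these counts. Of its 30000 peaks, 22.4% were in the reproducible list. It held 6622 summits in exons away from promoters by the same rule, of which 200 (3.02%, 2.63 to 3.46) were reproducible. That share was 1.72% (1.41 to 2.1) for coding exons, 8.53% (6.88 to 10.5) for 3'UTR exons and 19.5% (13.7 to 27.1) for 5'UTR exons. The relaxed exonic summits that overlapped no reproducible peak, 6363 in number, were spread almost evenly, with 260.0 per Mb in coding exons, 295.0 per Mb in 3'UTR exons and 289.3 per Mb in 5'UTR exons. The order 5'UTR, 3'UTR, coding exon was therefore seen for the reproducible summits and not for the weak ones.

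**Figure D1:**
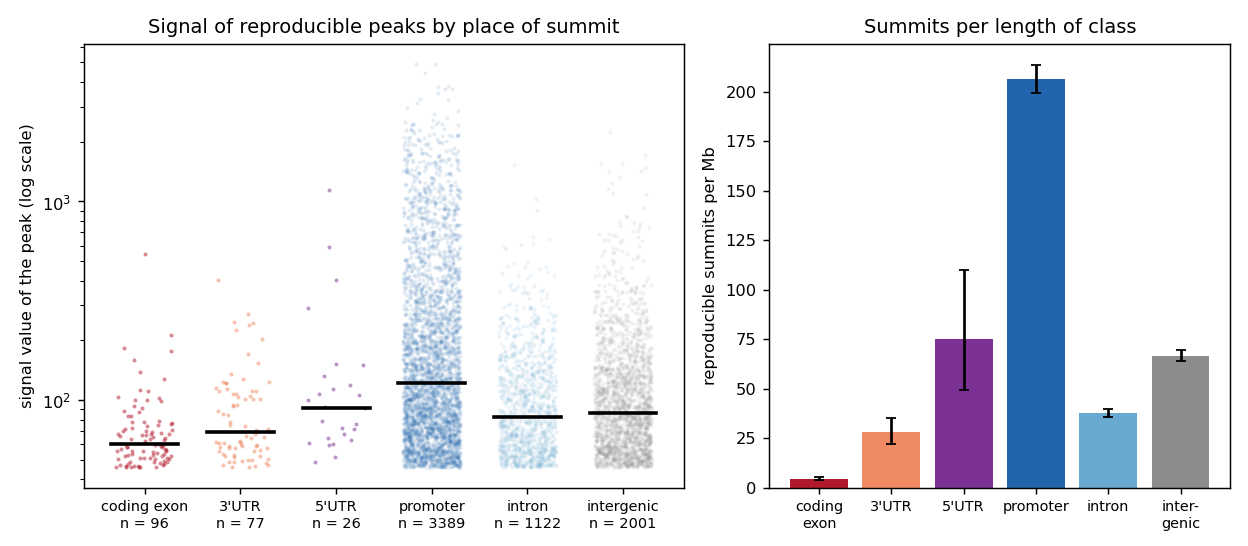
Signal value of each reproducible peak by the place of its summit on a log axis (left, 1 point a peak, bar at the median), and reproducible summits per Mb of each class (right, bars with 95% exact Poisson intervals). Coding exons had the lowest median signal, 60.5, and the lowest density, 4.59 summits per Mb, against 121.8 and 206.4 in promoter windows.

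Exonic summits were also weaker than the other reproducible summits. The lowest signal was 46.1 and the highest 1149, the median was 66.4, with quartiles of 53.6 and 100.5, against medians of 121.8 for promoter summits, 86.6 for intergenic summits, 82.5 for intronic summits and 98.5 for all reproducible peaks. The medians were 60.5 in coding exons, 69.1 in 3'UTR exons and 92.0 in 5'UTR exons. Of the 200 exonic summits 53 (26.5%, 20.9 to 33.0) were among the 3356 strongest peaks of the reproducible list, and the other 147 among the 3356 weakest. Of the 53 strong ones 14 (26.4%, 16.4 to 39.6) lay in coding exons, against 82 of the 147 weak ones (55.8%, 47.7 to 63.6). The weakest exonic summits stood at the edge of the reproducible list: those in T27F6.8 and vab-10 had signals of 46.1 and 46.1, while the nearest exonic summits left out, in sucl-1 and cal-1, had 45.7 and 45.7. Most peaks, 165 of 200, had the authors' commonest width of 344 bp. That is 82.5%, against 60.6% of all reproducible peaks, but among the 3356 weakest peaks the shares were 97.3% of the exonic ones and 96.5% of all.

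The 2 strongest exonic summits lay in 5'UTR exons. The highest lay in C34C12.2, which encodes a protein with a fibronectin type III domain, at chrIII:3456425. Its signal was 1149 in the reproducible list, where it ranked 192, and 1032 and 118 in the replicate 1 and replicate 2 lists. It lay 2639 bp downstream of the start of the gene, in a first exon of 2829 bp. The next was in the first exon of agt-2, which encodes an alkylguanine DNA alkyltransferase of DNA repair, 387 bp past its start, with a signal of 593 and with 554 and 38.2 in the replicate 1 and 2 lists. The summit in blos-4, for a subunit of the complex that forms lysosome-related organelles, lay 245 bp past its start and had 405 in the reproducible list. In the replicate lists it had 398 in replicate 1 and 7.81 in replicate 2. ZK484.6, a phosphoglycerate mutase family gene, had a summit 254 bp past its start with a signal of 292. Of the 26 summits in 5'UTR exons, 11 (42.3%, 25.5 to 61.1) lay within 500 bp downstream of a start of the host gene, just past the edge of the promoter window, against 21 of 96 in coding exons (21.9%, 14.8 to 31.1) and 2 of 77 in 3'UTR exons (2.60%, 0.715 to 8.98). This order also follows where such exons lie in a gene. The share was not computed for weak exonic summits or for exon length.

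In coding exons the strongest summit was in pks-1, the very long gene of a polyketide synthase. It lay at chrX:5429556 in exon 22 of 31, 15746 bp from the start of the gene, and the nearest other reproducible summit was 21678 bp away. Its signal was 545, with 449 and 85.1 in the replicate 1 and 2 lists, where the overlapping peaks ranked 591 and 156. The second, in exon 4 of T28F4.4, which encodes a protein with a Pumilio-type RNA-binding domain, had 213, with 179 and 30.8 in the replicate lists. The other coding summits among the 20 strongest were in ril-2, rskn-1, which encodes a ribosomal protein S6 kinase, and F01F1.3, with signals of 183, 177 and 159.

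In 3'UTR exons the strongest summit was in F16A11.1, which encodes a RING finger protein, with a signal of 404 and with 390 and 13.2 in the replicate 1 and 2 lists. It lay 733 bp upstream of the start of rtcb-1, the RNA ligase gene. The second was in the last exon of cept-2, an enzyme of phospholipid synthesis, with 272, and with 246 and 27.1 in the replicate lists. It lay 553 bp upstream of the start of vha-13, which encodes a catalytic subunit of the vacuolar ATPase. slc-25A46 (249, 944 bp upstream of eif-3.J), W09G3.6 (246, 574 bp upstream of W09G3.8) and F55C12.6 (172, 744 bp upstream of tex-2) showed the same arrangement. The W09G3.6 summit, however, lay nearer to a start of its own host gene, 300 bp past it. adal-1, C05D11.8, Y47H9C.12 and ptr-12, with signals of 238, 226, 204 and 154, were the other 3'UTR hosts among the 20 strongest, and dmd-7 (153) and egl-30 (151), the gene of a Gq alpha subunit, the other 5'UTR hosts. Among the 20 strongest, 9 (45%, 25.8 to 65.8) lay within 1000 bp upstream of a protein-coding start, against 23 of the other 180 (12.8%, 8.67 to 18.4). Over all exonic summits this was 32 of 200 (16%, 11.6 to 21.7), against 654 of the 6363 weak exonic summits (10.3%, 9.56 to 11). Among intronic reproducible summits it was 172 of 1122 (15.3%). By kind of exon the share was not higher in coding exons, with 8 of 96 reproducible and 535 of 5433 weak summits (8.33% and 9.85%). It was higher in 3'UTR exons, with 16 of 77 against 97 of 811, and in 5'UTR exons, with 8 of 26 against 21 of 100. In each kind the intervals overlapped.

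The edges of the rule were examined at both ends of the promoter window. The summits that just missed the upstream edge were 546 bp upstream of F32H5.4, in the 3'UTR of F32H5.3 with a signal of 61.2, and the cept-2 summit 553 bp upstream of vha-13. Those that just missed the downstream edge lay 205 bp past a start of fkh-9, which encodes a forkhead factor, and 225 bp past the start of pgrn-1, the progranulin gene, with signals of 78.4 and 46.4. Just inside, and therefore counted as promoter summits, were summits 480 bp upstream of atp-4 (134) and 452 bp upstream of aldo-2 (123), and summits 197 bp past a start of epc-1 (53.0) and 195 bp past a start of lit-1 (116). The summits inside and outside did not fall into separate ranges of signal.

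Along the host gene, the place of exonic summits depended on the kind of exon. Over all exonic summits the median position was 79.6% of the gene length from its start, 111 of 200 (55.5%, 48.6 to 62.2) lay beyond 75%, and 100 of 200 lay in the last exon. The weak exonic summits had a median of 62.8% and 2357 of 6363 (37.0%, 35.9 to 38.2) beyond 75%. The kinds of exon were therefore also set side by side. In 3'UTR exons the shares beyond 75% were 93.5% of the reproducible and 92.4% of the weak summits. In 5'UTR exons they were 1 of 26 (3.85%, 0.682 to 18.9) and 11 of 100 (11%, 6.25 to 18.6), with median positions of 28.3% and 32.5%. In coding exons they were 37 of 96 (38.5%, 29.4 to 48.5) and 1581 of 5433 (29.1%, 27.9 to 30.3), and 33 of 96 reproducible coding summits (34.4%, 25.6 to 44.3) lay within 500 bp of the gene end, against 983 of 5433 weak ones (18.1%, 17.1 to 19.1). Of the 77 summits in 3'UTR exons, 31 (40.3%, 30 to 51.4) faced a convergent neighbour and 45 (58.4%, 47.3 to 68.8) a neighbour on the same strand. At the ends of 1998 protein-coding genes, taken at even steps along the annotation, a convergent neighbour was found at 895 (44.8%).

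**Figure D2:**
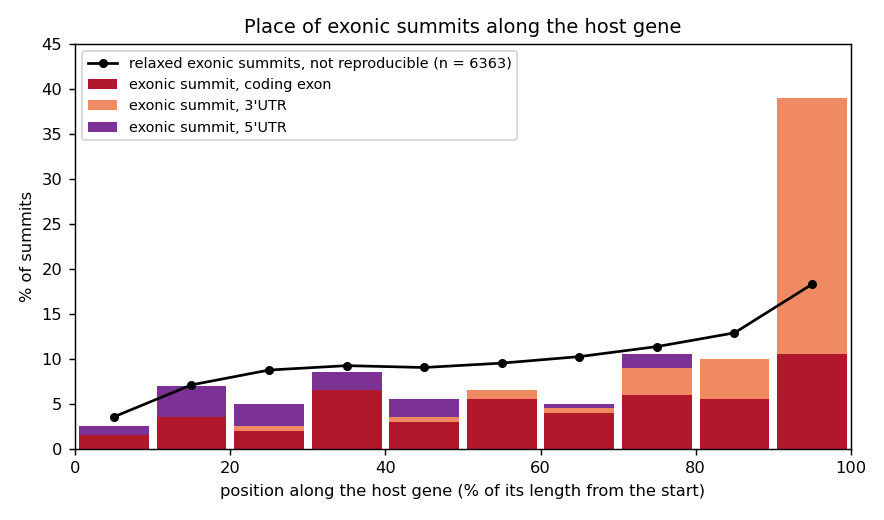
Position of exonic summits along the host gene in steps of 10% of its length from the start, as a percentage of summits. Stacked bars are the reproducible exonic summits by kind of exon, and the black line is the 6363 relaxed exonic summits that overlap no reproducible peak. The stretch from 90% to 100% held 39.5% of the reproducible exonic summits, against 18.3% of the weak ones.

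The 2 replicates were compared through the peaks of their own relaxed lists that overlap each exonic peak by at least 1 bp. All 200 had a partner in replicate 1 and 178 of 200 (89%, 83.9 to 92.6) had one in both lists, while 92.0% of all reproducible peaks had one in both. Among the strongest 6712 peaks of each replicate, 186 of 200 (93.0%, 88.6 to 95.8) had a partner in replicate 1 and 130 of 200 (65.0%, 58.2 to 71.3) in replicate 2. Both strongest lists were reached by 118 of 200 (59.0%, 52.1 to 65.6), where 69.9% of all reproducible peaks reached both. The share moved with signal. Among the 3356 weakest peaks the share was 74 of 147 (50.3%, 42.4 to 58.3) for exonic summits and 1702 of 3356 (50.7%, 49.0 to 52.4) for all peaks. Among the 3356 strongest it was 44 of 53 (83.0%, 70.8 to 90.8) and 2993 of 3356 (89.2%, 88.1 to 90.2).

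The order of the exonic peaks was only loosely shared. Over the 178 that were matched in each replicate list, the Spearman correlation between the signals of the replicate lists was 0.355, against 0.724 over 3133 promoter peaks and 0.652 over 6172 reproducible peaks. These are descriptions across peaks of the same libraries, and a narrower range of signal lowers a rank correlation. The median signal of the partners of exonic peaks was 58.3 in the replicate 1 list, with a range from 34.0 to 1032, and 8.78 in the replicate 2 list, with a range from 2.29 to 118. The scales of the lists differ and were not compared. The strongest exonic summits without a partner in replicate 2 were in the 3'UTR of cts-1, which encodes citrate synthase (124), in the 3'UTR of eat-16, for a regulator of G protein signalling (114), and in a 5'UTR of rsbp-1 (75.8). Ranked among the reproducible peaks with both partners, the exonic summits with the largest differences in rank were in F26F12.3, acer-1 and F59F4.3. The 3'UTR summit of F26F12.3 had 41.7 in the replicate 1 list and 20.5 in the replicate 2 list, which placed it 5876th by replicate 1 and 1500th by replicate 2. The coding summit of acer-1 at chrII:6889061 was 6038th and 1969th, and that of F59F4.3 5667th and 1927th. All 3 stood higher in replicate 2, while the next, W02G9.3 and blos-4, stood higher in replicate 1. Of the 178 exonic peaks with both partners, 110 ranked higher by replicate 2 and 68 by replicate 1. The same count was not made over all reproducible peaks or over peaks of like signal. It therefore does not tell whether this split is particular to exonic peaks.

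**Figure D3:**
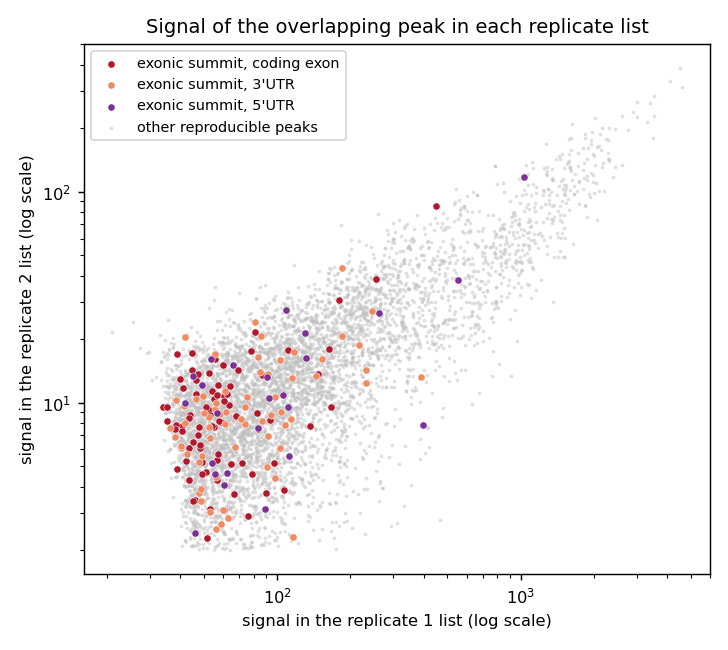
Signal of the overlapping peak in the replicate 1 list (x) and the replicate 2 list (y) on log axes, for the exonic peaks by kind of exon and for the other reproducible peaks in grey. The exonic peaks sit mostly at the low end of both axes, while C34C12.2 and pks-1 stand high in both lists and blos-4 in replicate 1 only.

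Each replicate taken alone gave a different number of exonic summits. Among the 6712 strongest peaks of replicate 1 there were 211, of which 47.9% were in coding exons. Among the 6712 strongest of replicate 2 there were 491, of which 70.5% were in coding exons. The count of 200 in the reproducible list was near that of replicate 1.

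Exonic summits lay at the starts of non-coding genes less often than other reproducible summits, but not less often than weak exonic summits. The window of 500 bp upstream to 200 bp downstream of such a start held 14 of 200 (7%, 4.22 to 11.4), whereas it held 18.4% of all reproducible summits. It held 410 of 3389 promoter, 304 of 1122 intronic and 509 of 2001 intergenic summits, and 236 of 6363 weak exonic ones (3.71%). Within each kind of exon the intervals of reproducible and weak summits overlapped. The difference from all reproducible summits was there among the 3356 weakest peaks, with 5 of 147 (3.40%, 1.46 to 7.71) for exonic summits and 535 of 3356 (15.9%, 14.7 to 17.2) for all peaks. Among the 3356 strongest the values were 9 of 53 (17.0%, 9.20 to 29.2) and 702 of 3356 (20.9%, 19.6 to 22.3), which overlap. By biotype, 10 of the 14 were at starts annotated as ncRNA, 3 of which were also at a tRNA gene, 2 at a snoRNA gene, 1 at a pseudogene and 1 at a piRNA gene. The strongest were in Y47H9C.12 (204), at a pseudogene start, in the last exon of ril-2 (183), at the snoRNA gene C14C10.8, and in dmd-7 (153), at the ncRNA gene K08B12.7. The tRNA genes stood beside the summits in sur-7, W02G9.3 and mdf-2.

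The sequence within 75 bp of each summit was searched on both strands for 4 E2F consensus words (TTCCCGC or TTCGCGC and also TTGCCGC or else TTGGCGC), for the GATA word TGATAA bound by gut GATA factors such as ELT-2 and ELT-7, and for the E-box CACGTG. None of these words contains another. A match describes the letters in the window and is not a site. The examples below were chosen after the values were seen: for each motif they are the strongest exonic summits on chromosomes II to V and X that hold it, shown because they let the match be read beside the annotated exon. Each line is 30 bases from the RefSeq genome of WBcel235, the assembly of ce11, 5′ to 3′ on the strand where the word reads forward, with the matched word in capitals. GATA words were found at 54 of the 165 exonic summits on these chromosomes, E2F words at 7 and E-boxes at 20. The exon named for each example is the one that holds the summit, and the word itself was not placed in an exon. At sur-7 the summit lay 18 bp from an exon edge and the word 28.5 bp from the summit. The sur-7 word can therefore lie outside the exon. The GATA examples are from summits in a coding exon of sur-7 (chrX:16378093-16378122, minus strand) and of the cytochrome P450 gene cyp-43A1 (chrX:5715581-5715610, minus), and in the 3'UTR exons of C05D11.8 (chrIII:6422289-6422318, plus), of the cell polarity gene lgl-1 (chrX:864498-864527, minus) and of the F-box gene lin-23 (chrII:6374732-6374761, plus).
sur-7: ccacaacggagaTGATAAaactcactcgtg
cyp-43A1: tatgggaatgatTGATAAcaacactctgac
C05D11.8: catcatatcgtaTGATAAaatttacgactc
lgl-1: aacggtaacttgTGATAAcactaatcacct
lin-23: atgtgacaagagTGATAAtgagaaaataat

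The E2F examples are from summits in 5'UTR exons of F22D3.4 (chrII:6926564-6926593, plus) and of the homeobox gene unc-62 (chrV:4507905-4507934, minus), and in coding exons of nrfl-1 (chrIV:9121728-9121757, minus), of C44F1.1 (chrIII:3764237-3764266, plus) and of the intraflagellar transport gene osm-1 (chrX:16550742-16550771, minus). The E-box examples are from the summit in the 5'UTR exon of C34C12.2, the strongest of all (chrIII:3456432-3456461, plus), and from the stronger summit in the 3'UTR exon of C05D11.8 (chrIII:6421288-6421317, plus).
F22D3.4, E2F: gcgcctttcgcTTCCCGCtccttcattcta
unc-62, E2F: cctctgttcgaaTTGCCGCcttggagagaa
nrfl-1, E2F: atgatgaatcctTTGGCGCtgggtccccta
C44F1.1, E2F: gacgccaattcTTGCCGCatttgtgccaag
osm-1, E2F: atttcctcgtgtTTGGCGCtctggaaaata
C34C12.2, E-box: cgcgctccaccgCACGTGtgtaaaacaaaa
C05D11.8, E-box: gtcttttgacacCACGTGacgagtcacgtt

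E2F words were uncommon at exonic summits. They were found at 11 of 200 (5.50%, 3.10 to 9.58), against 12.7% of all reproducible summits, 15% (13.9 to 16.3) of promoter summits and 4.64% (4.15 to 5.18) of the weak exonic summits, so the exonic share was near that of weak peaks in exons and below that of promoters. Among the 20 strongest exonic summits 1, in ZK484.6, held an E2F word. Around the position 500 bp away at lower coordinate the share was 16 of 200 (8%, 4.98 to 12.6) for exonic summits, no lower than at the summits, and 166 of 3389 (4.90%) for promoter summits. Among the 3356 strongest peaks 4 of 53 exonic summits (7.55%, 2.97 to 17.9) held an E2F word, against 580 of 3356 of all peaks (17.3%, 16 to 18.6), and among the 3356 weakest 7 of 147 (4.76%, 2.33 to 9.50), against 271 of 3356 (8.08%, 7.20 to 9.05). In both groups the intervals overlap. The E2F word nearest the summit was at a median distance of 32.0 bp, from 2.00 bp in osm-1 to 63.0 bp in F22D3.4.

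GATA words were found at 62 of 200 exonic summits (31.0%, 25 to 37.7), where 23.3% of all reproducible summits held one, and at 19.3% (18.0 to 20.7) of promoter summits and 14.3% (13.5 to 15.2) of weak exonic summits. The share was alike in the kinds of exon, 29 of 96 in coding exons (30.2%), 24 of 77 in 3'UTR exons (31.2%) and 8 of 26 in 5'UTR exons (30.8%). Among weak summits it was 13.5% in coding exons, 18.5% in 3'UTR exons and 25 of 100 in 5'UTR exons (25%, 17.5 to 34.3), and the interval of the last overlapped that of the reproducible 5'UTR summits (16.5 to 50). At the position 500 bp away it was 15% (10.7 to 20.6) for exonic summits and 14.9% for all peaks. The share moved with signal, however. Among the 3356 weakest peaks it was 49 of 147 for exonic summits (33.3%, 26.2 to 41.3) and 1132 of 3356 for all peaks (33.7%, 32.2 to 35.3), and among the 3356 strongest 13 of 53 (24.5%, 14.9 to 37.6) and 435 of 3356 (13%, 11.9 to 14.1). The higher share over all exonic summits was thus not seen among the weakest peaks, where most of them lie. It was seen among the strongest, where the intervals did not overlap. Of those strongest peaks 1996 of 3356 were promoter summits, and strong intronic and intergenic summits were not set apart. Over the whole list the intronic share was 28.0% and the intergenic share 26.8%. Among the 20 strongest exonic summits 2 (10%, 2.79 to 30.1) held a GATA word. In the strongest peaks of replicate 2 alone the order was different, with 124 of 491 exonic summits (interval 21.6% to 29.3%) against 1871 of 6712 peaks (27.9%, 26.8 to 29.0), while in those of replicate 1 alone it was 60 of 211 (28.4%, 22.8 to 34.9) against 1503 of 6712 (22.4%, 21.4 to 23.4). Base composition also moved with the share. Where under 38% of the bases were G or C, 25 of 66 exonic summits held a GATA word (37.9%, 27.1 to 49.9), against 39.2% of all reproducible summits and 21.6% of weak exonic ones. From 38% to 42% it was 15 of 54 (27.8%, 17.6 to 40.9), against 27.4% and 16.2%. From 42% upward it was 22 of 80 (27.5%, 18.9 to 38.1), against 11.6% and 9.45%. The exonic share was thus above that of all reproducible summits in the band richest in G and C and near it in the other bands. The part of composition and signal in these shares was not tested further.

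E-boxes were found at 23 of 200 exonic summits (11.5%, 7.79 to 16.7), against 9.91% of all reproducible summits, 7.29% (6.46 to 8.21) of promoter summits and 5.08% (4.56 to 5.64) of weak exonic ones. The order depended on the replicate. In the strongest peaks of replicate 2 alone an E-box was at 34 of 491 exonic summits (6.92%, 5 to 9.52), against 8.48% of all peaks and 6.92% of promoter summits, while in those of replicate 1 alone it was at 23 of 211 (10.9%, 7.37 to 15.8), against 9.65% and 6.98%. The CHR words TTTGAA and TTCGAA, bound by the DREAM subunit LIN-54 at cell cycle promoters, were at 60 of 200 exonic summits (30%, 24.1 to 36.7), against 34.6% of all reproducible summits, 38.9% of promoter summits and 31.1% of weak exonic ones. Intronic and intergenic summits had like shares, 30.3% and 30.2%. At the position 500 bp away the shares were 41.5% for exonic summits, 46.0% for all reproducible, 44.6% for promoter and 42.3% for weak exonic summits, each above the share at the summits. The B box of tRNA genes, GTTCGANNC, whose letters can hold the second CHR word, was at 1 of 200 exonic summits (0.5%, 0.0883 to 2.78) and 3.55% of all reproducible summits.

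**Figure D4:**
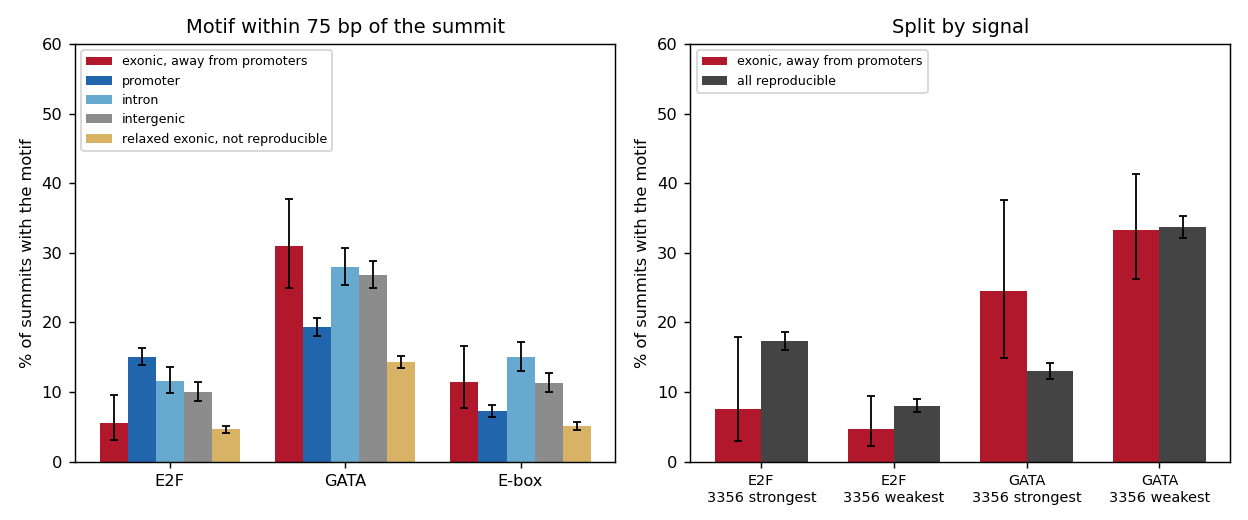
Percentage of summits with a motif within 75 bp, with 95% Wilson intervals, for exonic summits away from promoters and the other places of summits (left), and for exonic summits and all reproducible peaks among the 3356 strongest and the 3356 weakest peaks (right). For GATA the exonic share of 31.0% stood above the promoter share of 19.3%. The intronic and intergenic shares were 28.0% and 26.8%. Among the 3356 weakest peaks the exonic and overall shares were 33.3% and 33.7%.

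The 200 summits lay in 187 host genes, 0.936% of the 19973 protein-coding genes. Of these hosts 61 (32.6%, 26.3 to 39.6) also had a reproducible promoter peak, against 19.8% of all protein-coding genes and 1663 of the 4207 hosts of weak exonic summits (39.5%, 38.1 to 41.0). By chromosome, V held 51 exonic summits, X 42, I 35, II 29, III 28 and IV 15. Chromosome V held 25.5% (20 to 32.0), against 17.1% of all reproducible summits, and chromosome IV 7.50% (4.60 to 12), against 14.9%. Another reproducible summit lay within 1000 bp of 50 of the 200 (25%, 19.5 to 31.4), against 25.5% of intergenic, 22.9% of intronic and 14.0% of promoter summits. Over all reproducible summits it was 19.3% (18.4 to 20.2), an interval that overlaps the exonic one.

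There were 9 hosts with 2 or more exonic summits. The gene mnk-1, which encodes a kinase that acts on the cap-binding translation factor, held 4 exonic summits among 11 reproducible summits over and just beside the gene, 2 coding (61.3 and 47.6) and 2 in the 3'UTR (71.8 and 46.4), and the strongest there was intronic (360). The coding summit with 47.6 had no partner in replicate 2. F26F12.3, for a protein with an IBR zinc-binding domain, held 2 in a 5'UTR exon (114 and 106) and 1 in the 3'UTR (62.0), beside a promoter summit of 361. icl-1, which encodes the fused isocitrate lyase and malate synthase of the glyoxylate cycle, held 3 coding summits with 112, 88.7 and 77.1 that share 1 peak of 3808 bp, the widest in the list, with a promoter summit of 180 at its start. They are neighbouring summits of 1 enriched stretch over the gene and not separate peaks, and they share the same partner in each replicate list. The other hosts, C05D11.8, arrd-6, F09F7.5, cept-2, tps-1 and acer-1, held 2 each. The pair of peaks in arrd-6 overlap one another and share their partners.

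**Figure D5:**
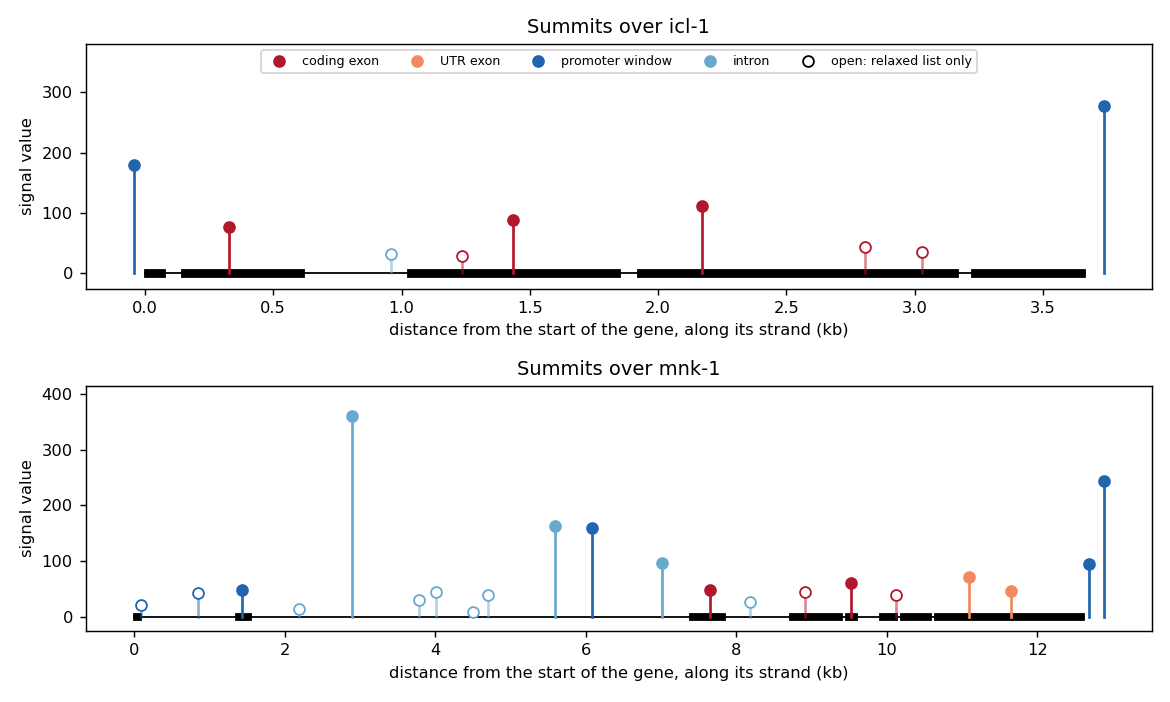
Summits over icl-1 and mnk-1 by distance from the gene start along its strand, with the signal in the pooled list as height and exons of the longest transcript as black blocks. Filled points are reproducible and open points are in the relaxed list only. Over icl-1 the coding summits of 77.1, 88.7 and 112 stood between promoter summits of 180 and 277, and over mnk-1 the exonic summits lay from 7.65 kb onward and below the intronic summit of 360.

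The hosts were set against 19 lists of gene families and tissue markers. A host of an exonic summit was found in 5 lists. It was 1 of 78 ribosomal protein genes (rpl-3, a protein of the large subunit, 55.5 in its 3'UTR), 2 of 1371 chemoreceptor genes (srx-41, 101 in its 3'UTR, and srab-12, 63.5 in a coding exon), 1 of 269 nuclear hormone receptor genes (nhr-19, 55.7 in a coding exon), 1 of 40 cell cycle genes (mdf-2, the MAD2 spindle checkpoint gene, 108 in a 3'UTR) and 1 of 6 epidermis genes (elt-3, which encodes an epidermal GATA factor, 77.7 in a coding exon). With 0.936% of all genes as hosts, each of these counts is small. In the other 14 lists there was none: 0 of 17 DREAM and synMuv B genes, 0 of 32 DNA replication genes, 0 of 13 gut genes, 0 of 8 muscle genes, 0 of 9 neuron genes, 0 of 6 germ line genes, 0 of 72 histone genes, 0 of 169 cuticle collagen genes, 0 of 33 proteasome genes, 0 of 39 translation factor genes, 0 of 23 heat shock genes, 0 of 20 vacuolar ATPase genes, 0 of 32 tRNA synthetase genes and 0 of the 3 genes the transgene draws on. At promoters the lists differed widely, where 19.8% of all protein-coding genes held a reproducible peak. Such a peak was found at 69 of 78 ribosomal protein genes, 27 of 32 DNA replication genes, 27 of 33 proteasome genes, 28 of 40 cell cycle genes and 7 of 17 DREAM and synMuv B genes. It was found at 20 of 1371 chemoreceptor genes, 14 of 169 cuticle collagen genes and 8 of 72 histone genes. In the tissue lists it was found at 7 of 13 gut genes, 3 of 9 neuron genes, 1 of 6 epidermis genes, 1 of 6 germ line genes and 0 of 8 muscle genes. Over and just beside ges-1 and lin-35 the pooled relaxed list had 0 summits. At unc-119 and just beside it there were 7, of which the 2 reproducible ones lay in an intron (168) and a promoter window (65.7).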

How the data were processed

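Each peak in the authors' deposited lists has a signal value, an enrichment score, used here only to rank and describe peaks within a list. The deposited −log10 q-value was used for no result. The summit is given as an offset from the peak start. Per the notes with the files, the lists were called against a control alignment, and the reproducible list derives from the relaxed ones. Which aligner, caller and threshold were used is not given in the sources used here. Per the labels, fragments were 150 to 350 bp. The depth is unknown.

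Gene models came from Ensembl release 115 and sequence from RefSeq, both of WBcel235, whose chromosomes fit the ce11 positions. A summit was tested first against promoter windows, then coding exons, other exons and gene bodies. The host is the gene of the longest transcript whose exon holds the summit. Shares have 95% Wilson intervals and densities exact Poisson intervals. No test was run, since there was 1 group. The summits, gene lists, motifs and named genes were chosen with earlier results of these data known. Named are the hosts of the 20 strongest summits, the 3 strongest without a partner in replicate 2, the 3 with the largest rank difference, the 3 strongest at non-coding starts, the genes of the transgene, hosts in the 19 lists, hosts with 2 or more summits and the summits nearest the bounds. Alternatives were other promoter windows and starts, the strongest peaks, peak midpoints, each replicate alone, and other overlaps and motif windows. Classification, overlap (against bedtools 2.31.1) and motif search were tested on simulated data. Python 3.11.15 with pandas 2.3.3, numpy 2.4.6, scipy 1.17.1 and statsmodels 0.14.6 was used.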

Additional observations from a re-analysis of the deposited data

How the results depend on the processing

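Of 64 values recomputed under the alternatives, 51 moved by less than the 95% interval of the reported share, or by less than 1.5 times for the number of summits. The number of exonic summits was 168 to 221 under the other promoter windows and starts, 205 with peak midpoints, 198 with peaks of the same coordinates counted once, and 53 among the strongest 3356 peaks. With 1 replicate alone it was 211 to 491, and the cause of that spread was not tested. Among the strongest 3356 peaks, which leave fewer summits, the share in coding exons was 26.4%, with a partner in both replicates 96.2%, at a non-coding start 17.0% and within 1000 bp upstream of a protein-coding start 28.3%. That last share was 25.8% with windows of 250 bp either side, which by construction leave more upstream summits in. The share with a partner in both lists was 77.5% with 50% reciprocal overlap and 59.0% in the strongest lists. With 1 replicate alone the ranges were 47.9% to 70.5% in coding exons, 18.1% to 24.6% among the strongest 3356 peaks, 74.1% to 84.8% with a partner in both lists, 5.09% to 6.64% with an E2F word, 6.52% to 7.58% at a non-coding start and 13.8% to 17.5% upstream of a start. For the partner share, each such summit has a partner in its own list by construction, so the value rests on the other list. An alternative chosen after seeing the data kept the exonic summits that reach the strongest lists of both replicates, and 37.3% of these were among the strongest 3356 peaks. That choice favours strong peaks by construction. Another added alternative, starts of every transcript of protein-coding genes, gave 199 summits. 3 combinations were left out because their construction fixes the value. They are the share among the strongest peaks within the strongest peaks, the share at non-coding starts where those starts were removed, and the share within 1000 bp upstream where that window was removed. No paired analysis was possible because there was 1 group. Without read depth, a summit missing from the replicate 2 list cannot be told from one below its detection.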

Other observations

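A set of hosts that the lists did not cover was noticed after the values were seen, and its genes encode enzymes of central metabolism. Beside icl-1, the exonic summits lay in cts-1 (citrate synthase, 124 in a 3'UTR), acs-2 (an acyl-CoA synthetase, 73.0 in a coding exon), tps-1 (trehalose phosphate synthase, 78.2 and 76.1 in coding exons) and acer-1 (acetyl-CoA hydrolase, 74.4 and 51.5 in coding exons). Others lay in idhb-1 (a subunit of isocitrate dehydrogenase, 58.1 in a 3'UTR), pyc-1 (pyruvate carboxylase, 57.1 in a coding exon), gln-3 (glutamine synthetase, 54.4), pck-2 (phosphoenolpyruvate carboxykinase, 52.5) and argn-1 (arginase, 52.3), the last 3 in coding exons. The summits of cts-1 and argn-1 had no partner in the replicate 2 list. The genes were picked by their names from the list of hosts, so their number was compared with nothing.

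Another host is lin-56, a class A synMuv gene, of the set that acts in vulval fate redundantly with the class B genes, lin-35 among them. Its summit lay in a 5'UTR exon and had 60.3 in the reproducible list, with 45 in the replicate 1 list and 13.3 in the replicate 2 list.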
